A study of Syntrichia ruralis with 8 samples.

Results

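Among the cDNA clones of the desiccation-tolerant moss Tortula ruralis (also named Syntrichia ruralis) that carry no annotation, 55 lay below the typical clone in every treatment measured. They were chosen by a threshold on their own values. A clone had to be marked unknown, and its log2 of treated over hydrated signal, centred on the median of the 768 clones of each array, had to be at or below -0.4 in the mean of each of 4 groups of arrays. These 55 are 9.84% of the 559 unannotated clones. Of the 209 annotated clones, 37 (17.7%) met the same 4 thresholds. Every ratio against hydrated tissue given here was therefore used in the choice, directly or through the same arrays, and is a description with no support of its own. The differences between groups were not part of the rule, although a clone bounded at -0.4 in all 4 groups cannot have every size of difference.

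On every array, polyadenylated RNA from treated gametophytes (the leafy haploid plants) competed with that from hydrated ones, each in its own dye. The treatments were slow drying for 24 h at 20 °C in air of 66% relative humidity, and rapid drying over silica gel followed by 2 h of rehydration, and hydrated tissue had been kept wet for 48 h. Both were followed in total and in polysomal RNA, from separate tissue samples, giving the groups slow-dried total RNA, rapid-dried rehydrated total RNA and their polysomal counterparts, with 2 arrays each. All the plants, hydrated ones included, had been collected in the field and stored dry before they were wetted, and each RNA preparation pooled large numbers of plants from several clumps, so no value belongs to a single plant. The labels do not say whether the slow-dried and the rapid-dried arrays of a fraction share hydrated RNA, or how long the rapid drying took. In replicate 1 of a group the treated RNA carried Cy3, and in replicate 2 it carried Cy5. The array with slide number 85 is titled slow-dried but sourced as rapid-dried and rehydrated, and was used as the latter. Total RNA was on slides 2, 3, 5 and 6 and polysomal RNA on slides 73, 85, 93 and 105, so that fraction and slide series cannot be told apart.

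Mosses of this kind lose almost all their cell water on drying and resume metabolism on rewetting, and much of their response is known to lie in which stored messages are loaded on ribosomes. Polysomes are messages that carry several ribosomes, and their RNA is commonly taken as the pool under translation, which these arrays did not measure. The arrayed clones stem from a subtracted library, which is enriched by construction for some transcripts over others. None of the 55 has a gene name in the deposited files, and none is given one here. Of these clones, 37 were listed with an expressed sequence tag in a public database and 18 (32.7%) were not, against 100 (19.8%) of the 504 other unannotated clones. In bulk RNA a smaller share of cells that hold a transcript and less transcript per cell cannot be told apart.

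On the scale of the rule the 55 clones were lowest in slow-dried total RNA. Their median log2 ratio was -1.50 there, with a range from -3.47 to -0.41, and it was -1.18 (range -1.90 to -0.42) in rapid-dried rehydrated total RNA. The slow-dried polysomal median was -1.12 (range -3.16 to -0.41), and in rapid-dried rehydrated polysomal RNA -0.87 (range -1.97 to -0.41). A clone's lowest group was slow-dried total RNA for 25 clones, slow-dried polysomal RNA for 15, total RNA of rapid-dried rehydrated tissue for 12 and rapid-dried rehydrated polysomal RNA for 3. On each array separately, 48 of the 55 were below the array median on all 8 arrays.

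Values ran on past the threshold without a gap. Just inside it stood USD-515, at -0.41 in slow-dried total RNA, USD-734, at -0.41 in rapid-dried rehydrated polysomal RNA, and USD-75, at -0.41 in slow-dried polysomal RNA. Just outside stood USD-374, whose highest group mean of -0.40 lay above the threshold before rounding, and USD-220 and USD-474, both at -0.39.

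**Figure D1:**
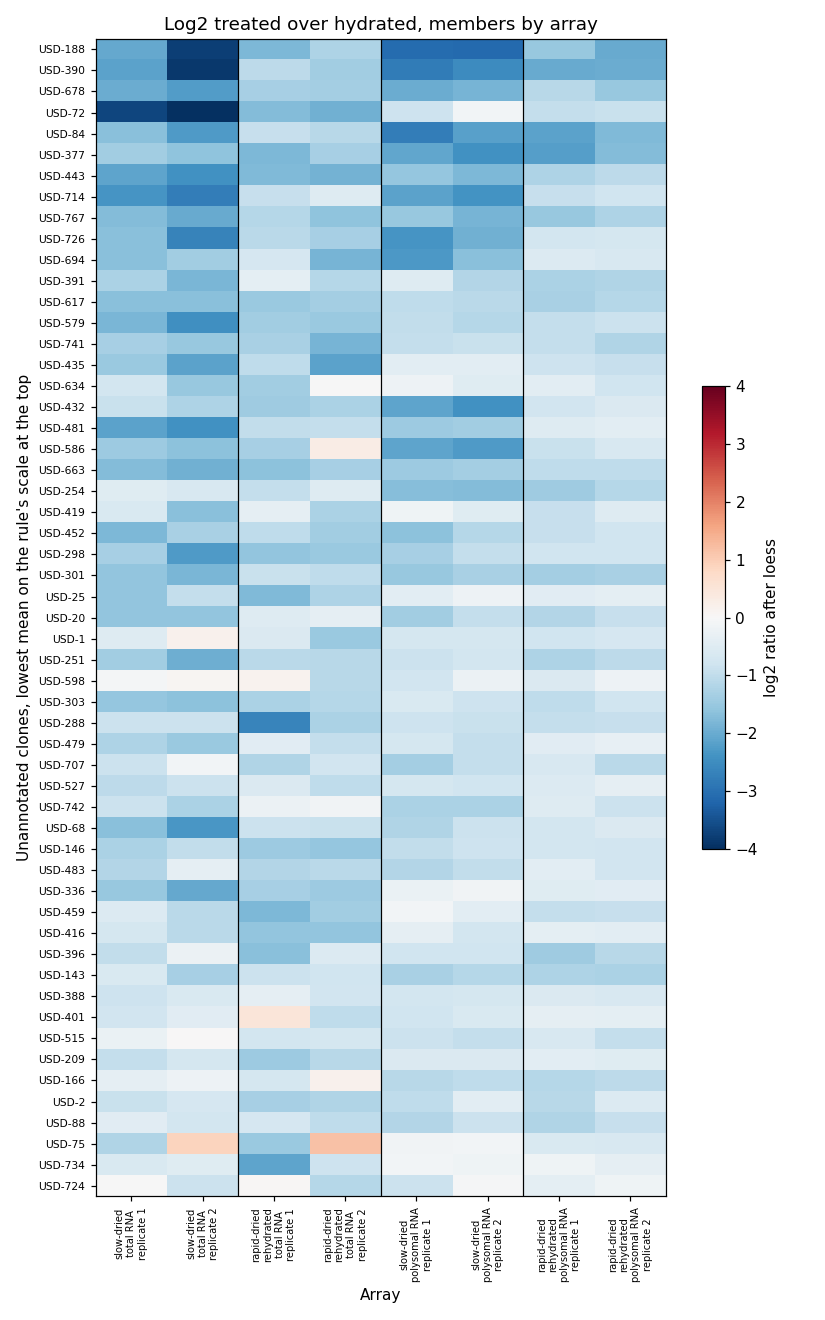
Colour shows log2 treated over hydrated signal after loess (blue, lower in treated tissue) for the 55 unannotated clones (rows, lowest mean on the rule's scale at the top) on the 8 arrays (columns, 2 per group). 47 of the 55 rows are below 0 on all 8 arrays, and USD-75 is above 0 on replicate 2 of both total RNA groups.

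Values from here on are log2 ratios after loess, which takes out any dependence of the ratio on brightness within an array and again sets the typical clone near 0. On this scale all 55 clones had 4 group means below 0, 40 had all 4 at or below -0.4, and 47 were below 0 on all 8 arrays. With limma at a Benjamini-Hochberg adjusted p under 0.05 over the 768 clones, 46 were called lower in slow-dried total RNA, where 30.6% of all clones were, and 47 in rapid-dried rehydrated total RNA, where 26.8% were. For slow-dried polysomal RNA 42 were called lower against 24.5% of all clones, and in rapid-dried rehydrated polysomal RNA 38 against 17.6%. In all 4 comparisons 31 of the 55 were called lower, as were 66 of all 768 clones (8.59%). The rule used these contrasts, so nothing is read from these counts. The median standard error of a clone was 0.18 (range 0.13 to 0.50), estimated over all arrays and equal in the 4 groups.

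The 2 arrays of a group did not repeat each other equally well. Among the 55 clones the median gap between the 2 arrays was 0.35 in slow-dried total RNA and 0.37 in rapid-dried rehydrated total RNA, against 0.22 and 0.16 in the polysomal groups. Gaps over 1 were found for 5 and 11 clones in the total RNA groups and for 0 in either polysomal group. In the rapid-dried rehydrated total RNA group, replicate 1 had only 28 of the 55 well above background in the hydrated channel, meaning above it by 2 background SD, and 38.3% of all clones. On the other 7 arrays between 42 and 54 were. USD-75 had the largest gaps of the 55, at -1.20 and 0.88 in slow-dried total RNA and -1.49 and 1.18 in rapid-dried rehydrated total RNA, and its treated and hydrated channels were both not well above background on either array of these groups.

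The lowest mean over the 4 groups belonged to USD-188. Its scanner signal in slow-dried total RNA was 8628 for treated against 11387 for hydrated tissue on replicate 1 and 1904 against 10915 on replicate 2, in arbitrary units before normalization. In slow-dried polysomal RNA it was 7778 against 51438 and 7580 against 19772. Hydrated tissue was brighter on all 4 of these arrays. As log2 ratios, the total RNA arrays gave -2.03 and -3.76 for slow-dried and -1.80 and -1.24 for rapid-dried rehydrated tissue. The polysomal arrays gave -3.07 and -3.11 for slow-dried and -1.52 and -2.03 for rapid-dried rehydrated tissue. Each slow-dried value was thus below every rapid-dried rehydrated value of the same fraction, with the slow-dried total RNA arrays far apart. Set against the typical clone after loess, the group means stood 7.44-fold lower in slow-dried total RNA and 8.53-fold lower in slow-dried polysomal RNA. In the rapid-dried rehydrated groups they stood 2.86-fold and 3.42-fold lower. These are not folds of the scanner signals. The difference of slow-dried from rapid-dried rehydrated tissue was -1.38 in total RNA (95% interval -2.59 to -0.16, limma adjusted p = 0.108) and -1.32 in polysomal RNA (95% interval -2.53 to -0.10, adjusted p = 0.180), and neither passed the threshold.

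USD-390, the next lowest, had -2.15 and -3.86 in slow-dried and -1.05 and -1.40 in rapid-dried rehydrated total RNA. In polysomal RNA it had -2.80 and -2.53 in slow-dried and -2.01 and -2.0 in rapid-dried rehydrated tissue. The groups did not overlap within either fraction, though the polysomal difference did not pass the threshold. In total RNA slow-dried tissue was lower by a log2 difference of -1.78 (SE 0.46, limma adjusted p = 0.0449), a call that was lost when any array other than replicate 1 of slow-dried total RNA was left out (without replicate 2 of that group the difference was -0.94, adjusted p = 0.0968).

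USD-678 had -1.98 and -2.23 in slow-dried total RNA, -1.33 and -1.35 in rapid-dried rehydrated total RNA, then -1.99 and -1.87 in polysomal RNA of slow-dried tissue, and -1.10 and -1.52 in rapid-dried rehydrated polysomal RNA. Slow-dried values were the lower ones in both fractions, with no overlap, but neither difference passed the threshold. Its treated channel was not well above background on either slow-dried total RNA array. Its mean hydrated level there was 3.93-fold above a floor for the treated channel. On each array the floor was the clone's own treated level or, if higher, the lowest treated level of any clone well above background. That can lie under the clone's own background limit, so the fold is no strict bound.

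USD-377 did not share the order of the clones just described. Its values were -1.41 and -1.60 in slow-dried total RNA and -1.79 and -1.32 in rapid-dried rehydrated total RNA, which overlapped. They were -2.07 and -2.42 in slow-dried polysomal RNA and -2.20 and -1.74 in rapid-dried rehydrated polysomal RNA, which overlapped as well. The polysomal values lay below the total RNA values, except that replicate 1 of rapid-dried rehydrated total RNA (-1.79) reached among them. The polysomal minus total difference was -0.75 (95% interval -1.41 to -0.08, limma adjusted p = 0.086) in slow-dried tissue and did not pass the threshold.

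USD-84 had -1.68 and -2.27 in slow-dried and -0.91 and -1.11 in rapid-dried rehydrated total RNA, and -2.77 and -2.16 and then -2.14 and -1.75 in the polysomal groups of the same treatments. It was lowest in slow-dried polysomal RNA, and slow-dried values were the lower ones in both fractions, with neither difference past the threshold. USD-767 had, in the same order, -1.72 and -2.02, -1.14 and -1.62, -1.53 and -1.87, and -1.52 and -1.25, with slow-dried values lower and no overlap. Neither of its differences between the treatments passed the threshold. USD-443 had -2.12 and -2.41, -1.76 and -1.90, -1.54 and -1.81, and -1.22 and -1.03. For USD-443 the slow-dried values were below the rapid-dried rehydrated ones without overlap in both fractions, by -0.43 (95% interval -0.94 to 0.07) and -0.55 (95% interval -1.06 to -0.04), neither past the threshold. USD-726, last of the 10 lowest, had -1.67 and -2.69, -1.08 and -1.33, -2.35 and -1.93, and -0.74 and -0.70, and was lower in slow-dried tissue in both fractions without overlap. Its slow-dried minus rapid-dried rehydrated difference of -1.42 in polysomal RNA (95% interval -2.25 to -0.59, limma adjusted p = 0.0891) did not pass the threshold, nor did that in total RNA.

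**Figure D2:**
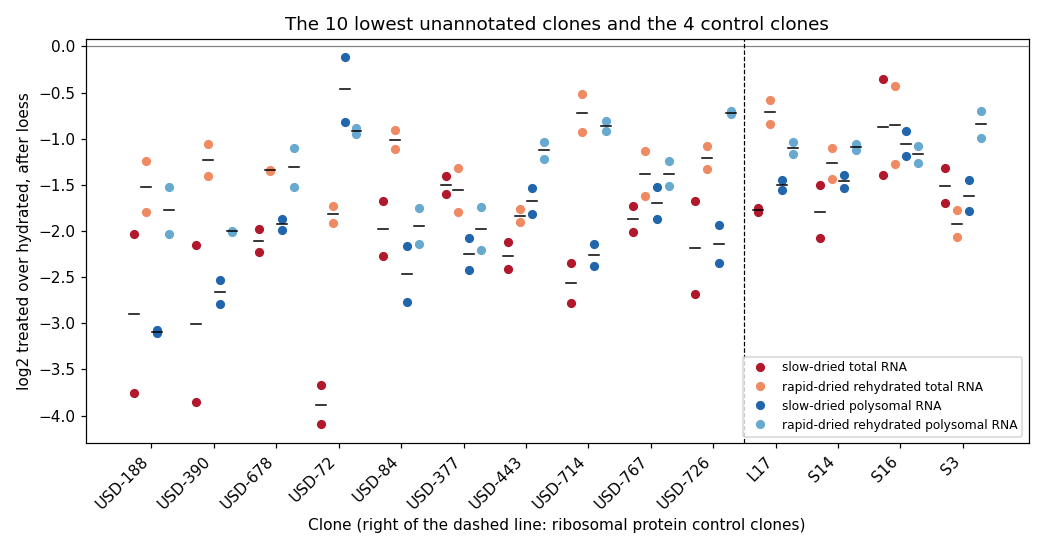
Points are single arrays and black bars the means of 2 arrays, on the vertical axis of log2 treated over hydrated signal after loess, for the 10 clones with the lowest mean over the 4 groups and, right of the dashed line, the 4 ribosomal protein control clones. The lowest slow-dried total RNA group mean, -3.88 for USD-72, stands beside a slow-dried polysomal mean of -0.47, and all 4 control clones lie below 0 in every group mean.

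Some of the 55 were nearly even across the groups. On the rule's scale USD-88 ranged over 0.18 between its highest and lowest group mean (-0.71 to -0.89) and USD-617 over 0.30 (-1.23 to -1.53). After loess USD-617 gave -1.66 and -1.68 in slow-dried total RNA, -1.49 and -1.36 in rapid-dried rehydrated total RNA, then -1.02 and -1.09 in polysomal RNA of slow-dried tissue, and -1.29 and -1.13 in that of rapid-dried rehydrated tissue. All its total RNA values were below all its polysomal values, and none of its 4 differences passed the threshold (the nearest was polysomal minus total in slow-dried tissue, 0.62, 95% interval 0.16 to 1.07, limma adjusted p = 0.053). The largest ranges on the rule's scale were 1.80 for USD-726 and 2.73 for USD-72.

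Whether the 55 clones stood at different levels after slow drying than after rapid drying and rehydration was tested in each fraction. In total RNA 7 were called different, all lower in slow-dried tissue, where 17.7% of all clones were called different, 11.3% lower and 6.38% higher. In polysomal RNA 2 were called, both lower in slow-dried tissue, against 3.91% of all clones in either direction, 3.65% lower and 0.26% higher. These shares, 12.7% and 3.64% of the 55, were near or under those of all clones. At an unadjusted p under 0.05, 20 and 11 of the 55 differed, beside 37.4% and 23.7% of all clones. The median difference over the 55 was -0.25 in total RNA and -0.14 in polysomal RNA, beside -0.03 and 0.03 over all clones. On the control scale described below the same medians were 0.05 and 0.22, so their sign depends on the scale. Slow-dried tissue had the lower mean in both fractions for 23 of the 55 (41.8%) and for 31.0% of all clones, and the higher mean in both for 9.

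USD-714 was called in both fractions, the one clone of the 55 that was. Its scanner signal in slow-dried total RNA was 7428 for treated against 12459 for hydrated tissue and 3616 against 10426 on the 2 arrays, and in rapid-dried rehydrated total RNA 14651 against 11698 and 14916 against 9832. As log2 ratios after loess these were -2.35 and -2.78 for slow-dried, and -0.93 and -0.52 for rapid-dried rehydrated tissue. In polysomal RNA the ratios were -2.14 and -2.38 against -0.91 and -0.81. The 4 slow-dried values lay apart from and below the 4 rapid-dried rehydrated ones. Slow-dried tissue was lower by -1.84 in total RNA (SE 0.25, 95% interval -2.46 to -1.23, limma adjusted p = 0.00846) and by -1.40 in polysomal RNA (SE 0.25, 95% interval -2.01 to -0.79, adjusted p = 0.0388). The polysomal call was lost without any 1 of the 4 polysomal arrays (adjusted p up to 0.452), and with median centring in place of loess (-1.17, adjusted p = 0.0581). The total RNA call was kept with each array left out, and without loess the difference was -1.16 (adjusted p = 0.0318).

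In total RNA the other clones called lower in slow-dried tissue were USD-72, USD-390, USD-481, USD-20, USD-68 and USD-742. USD-481 had -2.14 and -2.42 in slow-dried against -1.0 and -0.96 in rapid-dried rehydrated total RNA, and -1.46 and -1.40 against -0.50 and -0.43 in polysomal RNA. Slow-dried values were about 1 log2 unit lower in both fractions, without overlap. Its difference in total RNA was -1.30 (SE 0.20, limma adjusted p = 0.0102), a call lost without loess (-0.69, adjusted p = 0.0594). The polysomal difference of -0.96 (95% interval -1.45 to -0.48, adjusted p = 0.0592) did not pass the threshold.

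USD-20 differed in total RNA, with -1.58 and -1.56 in slow-dried against -0.52 and -0.36 in rapid-dried rehydrated tissue. The difference was -1.13 (SE 0.20, limma adjusted p = 0.0157), lost at an adjusted p of 0.0574 without replicate 2 of slow-dried total RNA or without either rapid-dried rehydrated polysomal array. With median centring in place of loess it was -0.34 (adjusted p = 0.312). In polysomal RNA its values of -1.40 and -0.95 overlapped with -1.18 and -0.92, and the difference was -0.13 (95% interval -0.61 to 0.36). USD-68 and USD-742 differed in total RNA by -1.11 (adjusted p = 0.0426) and -0.89 (adjusted p = 0.0376), and each call was lost in 7 of 8 refits that left out 1 array (adjusted p up to 0.133 and 0.127) and without loess.

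USD-432 was called in polysomal RNA. It had -2.11 and -2.42 in slow-dried against -0.77 and -0.59 in rapid-dried rehydrated polysomal RNA, and -0.90 and -1.25 against -1.43 and -1.26 in total RNA. The slow-dried polysomal arrays were the lowest 2 of its 8. The difference was -1.58 in polysomal RNA (SE 0.23, 95% interval -2.14 to -1.03, limma adjusted p = 0.0243) and 0.28 in total RNA (95% interval -0.28 to 0.83). The polysomal call was lost without any 1 of the 4 polysomal arrays (adjusted p up to 0.36).

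**Figure D3:**
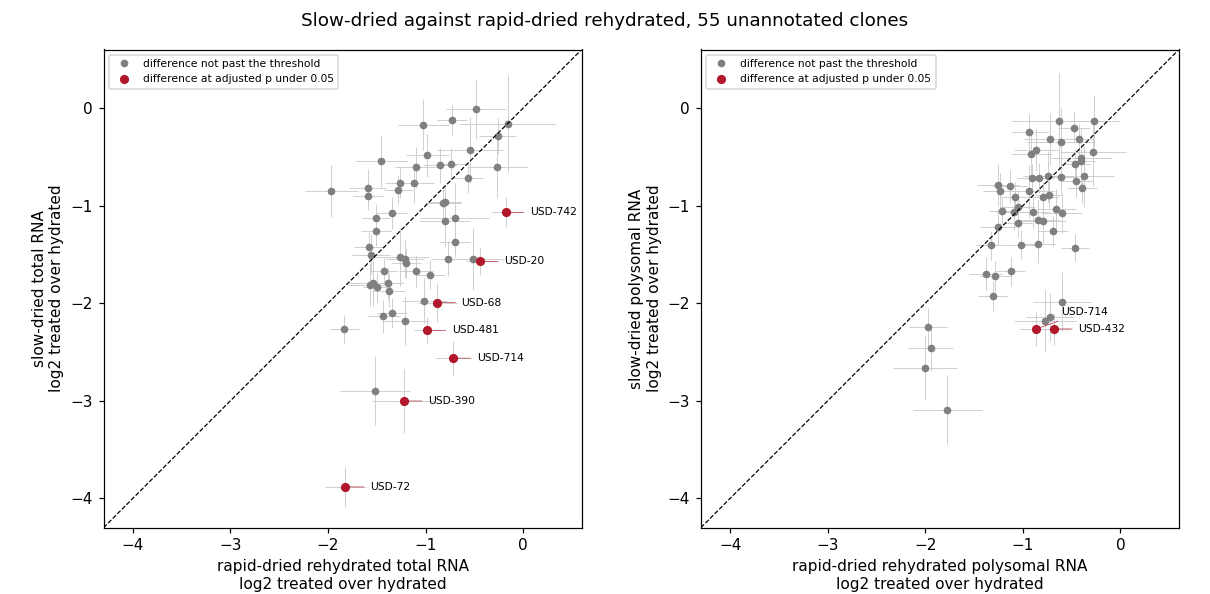
Each point is 1 of the 55 clones, with its log2 ratio after loess in rapid-dried rehydrated tissue (horizontal) and in slow-dried tissue (vertical), in total RNA (left) and polysomal RNA (right), and grey bars of 1 standard error. Red points, 7 in total RNA and 2 in polysomal RNA, have a limma adjusted p under 0.05 for the difference and all lie below the dashed line of equal values.

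Whether the 55 clones stood differently in the polysomal fraction than in total RNA was tested within each treatment. In slow-dried tissue 12 were called different, 9 higher and 3 lower in polysomal than in total RNA, against 29.3% of all clones in either direction (13.8% higher, 15.5% lower). In rapid-dried rehydrated tissue 6 were called, all higher in polysomal RNA, against 29.9% of all clones (14.5% higher, 15.5% lower). The shares called, 21.8% and 10.9% of the 55, were under those of all clones. At an unadjusted p under 0.05, 18 and 16 differed, beside 43.4% and 42.8% of all clones. The median difference over the 55 was 0.22 in both treatments, beside -0.09 and -0.06 over all clones. It was 0.14 and 0.09 on the control scale and 0.10 and 0.16 with floored background, and with the authors' deposited ratios its sign turned, to -0.14 and -0.36. Polysomal RNA had the higher mean in both treatments for 26 of the 55 (47.3%) and for 33.1% of all clones, and the lower mean in both for 12.

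USD-72 showed the largest of these differences among the 55. In slow-dried total RNA its signal was 2877 for treated against 8258 for hydrated tissue and 1094 against 6602, and in slow-dried polysomal RNA 956 against 1492 and 1839 against 685. Treated tissue was the dimmer on 3 of these 4 arrays and the brighter on replicate 2 of slow-dried polysomal RNA. After loess the ratios were -3.67 and -4.10 in total and -0.81 and -0.12 in polysomal RNA of slow-dried tissue. In rapid-dried rehydrated tissue they were -1.73 and -1.91 in total and -0.95 and -0.88 in polysomal RNA. Total RNA values were below polysomal values without overlap in both treatments. Set against the typical clone after loess, USD-72 was 14.8-fold lower in slow-dried total RNA and 1.38-fold lower in slow-dried polysomal RNA. The latter did not pass the threshold, and neither is a fold of the scanner signals. On the control scale described below both slow-dried polysomal arrays of USD-72 were above 0 (0.52 and 1.36).

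The polysomal minus total difference of USD-72 was 3.42 in slow-dried tissue (SE 0.30, 95% interval 2.71 to 4.13, limma adjusted p = 0.0015). In rapid-dried rehydrated tissue it was 0.91 (95% interval 0.20 to 1.62, adjusted p = 0.0613) and did not pass the threshold. In total RNA slow-dried tissue was lower than rapid-dried rehydrated tissue by -2.06 (SE 0.30, adjusted p = 0.00846). In polysomal RNA that difference was 0.45 (95% interval -0.26 to 1.16). Leaving out each array in turn kept the slow-dried polysomal minus total difference between 2.98 and 3.85 and past the threshold. In the authors' deposited ratios it was 2.44 (adjusted p = 0.049).

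USD-336 was higher in polysomal than in total RNA in both treatments. It had -1.53 and -2.06 in total against -0.27 and -0.13 in polysomal RNA of slow-dried tissue, and -1.33 and -1.44 against -0.49 and -0.47 in rapid-dried rehydrated tissue. None of the 4 total RNA values reached a polysomal value. The differences were 1.60 (SE 0.23, limma adjusted p = 0.00487) and 0.91 (SE 0.23, adjusted p = 0.0307). The first call was lost without replicate 2 of slow-dried polysomal RNA (adjusted p = 0.0562) and the second without any of 6 arrays (adjusted p up to 0.229). With median centring in place of loess the differences were 0.92 (adjusted p = 0.0301) and 0.62 (adjusted p = 0.0903).

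USD-25 had -1.57 and -0.95 in slow-dried and -1.77 and -1.25 in rapid-dried rehydrated total RNA, all below its polysomal values of -0.43 and -0.21, and -0.46 and -0.39. The hydrated channel of both slow-dried total RNA arrays and the treated channel of both rapid-dried rehydrated total RNA arrays were not well above background, so neither difference between its fractions was measured on both sides. In rapid-dried rehydrated total RNA its mean hydrated level was 1.88-fold above the floor described for USD-678, which is no strict bound. The fitted differences of 0.94 (limma adjusted p = 0.0231) and 1.08 (adjusted p = 0.0146) passed the threshold and are counted above, but give no size. The first call was lost without any of 5 arrays (adjusted p up to 0.142). The second was lost without 3 arrays (adjusted p up to 0.152), with floored background (0.72, adjusted p = 0.0688) and on the control scale (0.95, adjusted p = 0.103), and it was 1.72 (adjusted p = 0.00372) without loess.

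Further clones higher in polysomal RNA of slow-dried tissue were USD-579, USD-68, USD-303, USD-251 and USD-481, by log2 differences of 1.07, 0.96, 0.88, 0.87 and 0.85. USD-579 had -1.82 and -2.45 in total against -0.99 and -1.13 in polysomal RNA (SE 0.24, limma adjusted p = 0.019), without overlap. The call of USD-579 was lost without replicate 2 of slow-dried total RNA or without either slow-dried polysomal array (adjusted p up to 0.126). That of USD-68 was lost without any of 5 arrays (adjusted p up to 0.284), and without replicate 2 of slow-dried total RNA the difference was 0.55 (adjusted p = 0.18). The calls of USD-303, USD-251 and USD-481 were each lost without 5 of the 8 arrays too (adjusted p up to 0.162, 0.226 and 0.164), and USD-251 stood at 0.55 without replicate 2 of slow-dried total RNA. USD-435 had -1.47 and -2.15 in total against -0.44 and -0.42 in polysomal RNA, but its treated channel was not well above background on either slow-dried polysomal array. Its fitted difference of 1.38 (limma adjusted p = 0.0206) is counted above and gives no size, and the call was lost without 3 of the 8 arrays (adjusted p up to 0.154) and with flagged spots left out (1.18, adjusted p = 0.0627).

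In the opposite direction, 3 clones were lower in polysomal than in total RNA of slow-dried tissue. USD-432, described above, differed by -1.19 (SE 0.23, limma adjusted p = 0.0132). USD-254 had -0.49 and -0.65 in total against -1.72 and -1.73 in polysomal RNA, a difference of -1.15 (SE 0.22, adjusted p = 0.0138), and -0.95 and -0.52 against -1.41 and -1.15 in rapid-dried rehydrated tissue. Its polysomal arrays were the 4 lowest of the 8. USD-515, one of the clones just inside the threshold, had -0.28 and 0.02 in total against -0.87 and -0.96 in polysomal RNA, a difference of -0.79 (SE 0.22, adjusted p = 0.0387). The calls of USD-432 and USD-254 were lost without either slow-dried polysomal array (adjusted p up to 0.108 for both), and that of USD-515 without any of 5 arrays (adjusted p up to 0.21) and without loess (-0.56, adjusted p = 0.0934).

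In rapid-dried rehydrated tissue USD-416, USD-209, USD-146 and USD-443 were higher in polysomal RNA besides USD-25 and USD-336. USD-416 had -1.59 and -1.59 in total against -0.39 and -0.42 in polysomal RNA, a difference of 1.19 (SE 0.21, limma adjusted p = 0.0103). In some group, however, no array of USD-416 had both channels well above background. USD-209 had -1.46 and -1.10 against -0.43 and -0.49 (0.82, adjusted p = 0.0307), and USD-146 -1.46 and -1.55 against -0.72 and -0.75 (0.77, adjusted p = 0.0311). No fraction overlapped the other for these 3 clones. Their calls were lost without either rapid-dried rehydrated polysomal array (adjusted p up to 0.125, 0.232 and 0.224), and those of USD-209 and USD-146 without some other arrays and with floored background too (0.63, adjusted p = 0.0625, and 0.67, adjusted p = 0.0501). Without loess USD-146 was at 0.49 (adjusted p = 0.13). USD-443 differed by 0.71, a call lost without any of 6 arrays (adjusted p up to 0.365).

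**Figure D4:**
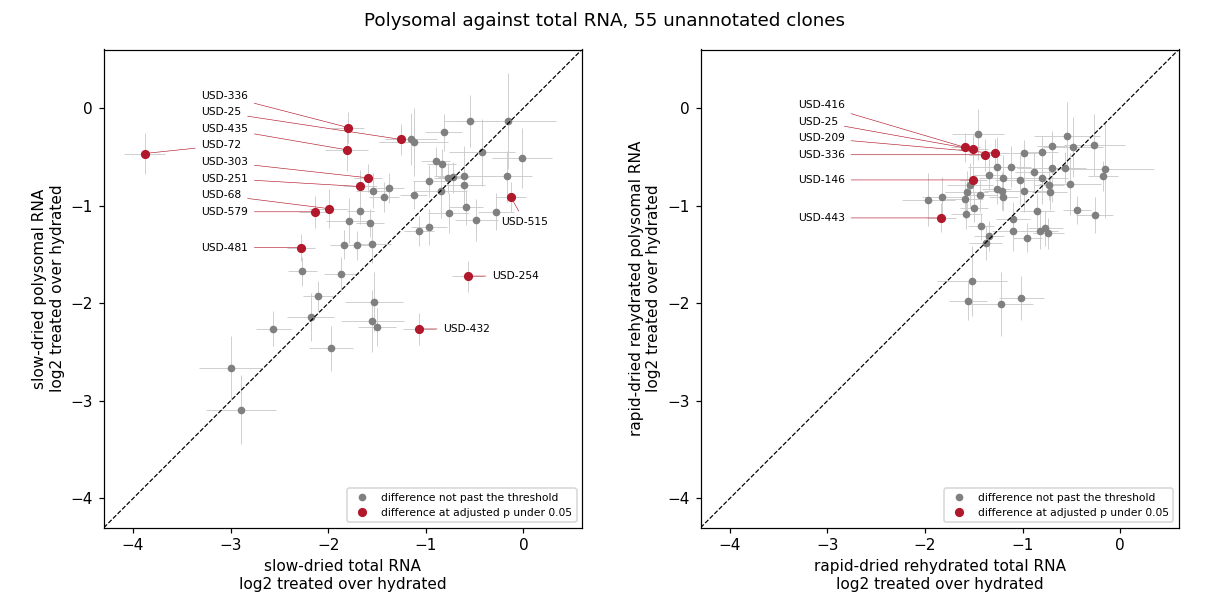
Each point is 1 of the 55 clones, with its log2 ratio after loess in total RNA (horizontal) and in polysomal RNA (vertical), in slow-dried tissue (left) and rapid-dried rehydrated tissue (right), and grey bars of 1 standard error. Red points have a limma adjusted p under 0.05 for the difference, and in slow-dried tissue 9 lie above and 3 below the dashed line of equal values, with USD-72 far to the left at -3.88 in total and -0.47 in polysomal RNA.

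Of the 55 clones, 20 were called in at least 1 of the 4 differences and 35 (63.6%) in none, beside 49.0% of all clones in none. Absence of a call does not show equal levels. The 95% interval of a difference reached 0.61 to either side for the median clone of the 55.

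That these clones are low depends on what they are set against. The arrays carry 4 ribosomal protein control clones, L17, S14, S16 and S3, which the labels describe as unaffected by the treatments, and the authors' own ratios set their median near 1. All 4 met the same thresholds as the 55 clones, with means over the 4 groups of -1.36, -1.32, -0.93 and -1.35 on the rule's scale. With the mean of the control clones of each array set to 0, the median of all clones stood at 1.53, 1.18, 1.44 and 1.04 in slow-dried total, rapid-dried rehydrated total, slow-dried polysomal and rapid-dried rehydrated polysomal RNA. The medians of the 55 clones were 0.11, 0.06, 0.39 and 0.20 in the same order. So the 55 were below most clones and, by their median, close to or above the control clones.

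On that control scale 9, 2, 8 and 4 of the 55 were called lower than in hydrated tissue (limma, all clones 3.26%, 1.56%, 2.6% and 1.3%), and 18, 6, 20 and 5 were called higher (all clones 77.7%, 72.5%, 81.6% and 75.5%). Group means were below 0 in all 4 groups for 6 clones, USD-188, USD-390, USD-678, USD-377, USD-443 and USD-767, and above 0 in all 4 for 14. By limma, 0 of the 55 and 0 of all 768 clones were called lower in all 4. At an unadjusted p under 0.05 it was also 0 of the 55. In at least 1 group 14 of the 55 were called lower, for which no share of all clones is given. With the authors' deposited ratios in the same model 8, 0, 9 and 2 were called lower in the 4 groups (8, 0, 10 and 4 at an unadjusted p under 0.05) and 6, 6, 5 and 1 higher. Of all 768 clones 19, 1, 20 and 6 were lower and 477, 536, 412 and 342 higher there. Centred on the control clones, no unannotated clone met the rule. The name lowered in all conditions therefore holds against the typical clone of this subtracted library and not against the control clones.

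Of single clones on the control scale, USD-188 was below 0 on all 8 arrays, the one clone of the 55 that was, with means of -1.41, -0.33, -1.68 and -0.72. It was called lower in all groups except rapid-dried rehydrated total RNA (limma adjusted p = 0.309). USD-390 had means of -1.52, -0.04, -1.25 and -0.95. USD-72 had -2.40 in slow-dried total RNA (limma adjusted p = 9.72e-08) and 0.94 in slow-dried polysomal RNA (adjusted p = 0.00487), called lower in the one and higher in the other. On this scale every clone of an array takes the same shift, so its error is shared by all clones. Each group still holds 2 arrays, and a very small p-value here does not stand for more replication. USD-336 was called higher in slow-dried polysomal RNA, at 1.21 (adjusted p = 0.000386).

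**Figure D5:**
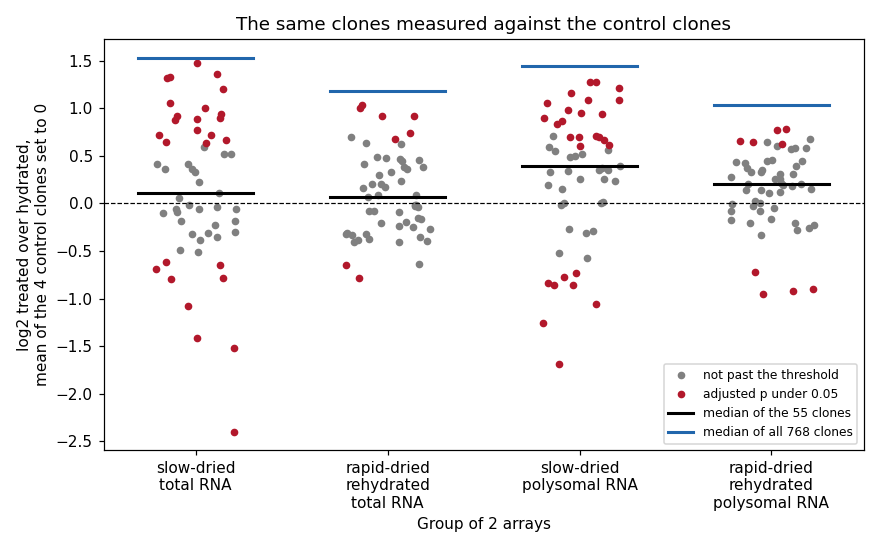
Points are the group means (2 arrays) of the 55 clones on the vertical axis of log2 treated over hydrated signal with the mean of the 4 control clones set to 0, with black bars at the median of the 55 and blue bars at the median of all 768 clones. Red points have a limma adjusted p under 0.05. In every group the median of the 55, from 0.06 to 0.39, lies below that of all clones, from 1.04 to 1.53, and above 0.

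Differences between groups shift by 1 constant per comparison on the control scale. The median of all clones moved to 0.27 and 0.39 for slow-dried minus rapid-dried rehydrated tissue in total and polysomal RNA, and to -0.17 and -0.19 for polysomal minus total RNA in slow-dried and rapid-dried rehydrated tissue. All 27 calls of the 55 clones kept their sign. On this scale 89, 0, 146 and 144 of all 768 clones were called in the 4 comparisons. Of the 55, 12, 7, 11 and 7 had an unadjusted p under 0.05, for which no share of all clones is given. A call was kept for 3 of 7, 0 of 2, 5 of 12 and 0 of 6 of the clones called above. Among those kept were the difference of USD-72 between the fractions in slow-dried tissue (3.34, limma adjusted p = 1.07e-05) and its difference between the treatments in total RNA (-1.76, adjusted p = 0.0094), that of USD-714 in total RNA (-1.54, adjusted p = 0.0118), and the polysomal minus total differences of USD-432 (-1.27, adjusted p = 0.0225) and USD-254 (-1.23, adjusted p = 0.0268).

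Dim signals limit some of the 55. In both channels of at least 1 array in every group, 37 were well above background, and 24 were so in all 16 channels. The treated channel was not well above background on either array for 4, 3, 8 and 1 clones in the 4 groups, and the hydrated channel for 8, 3, 1 and 1. Besides USD-678, the mean hydrated level of USD-694 in slow-dried total RNA was 2.74-fold above the floor described for USD-678. In slow-dried polysomal RNA it was 1.72-fold, 1.68-fold and 1.58-fold above it for USD-391, USD-527 and USD-401. None of these folds is a strict bound. USD-75 and USD-598 had neither channel well above background in some groups and get no fold there.

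The annotated clones that met the same 4 thresholds show what kinds of message sat at these levels. By their mean over the groups on the rule's scale the lowest were a chloroplast carbonic anhydrase precursor (-2.76), which interconverts carbon dioxide and bicarbonate, a 16 kDa membrane protein (-2.70), a subunit of photosystem I that docks plastocyanin (-2.60) and the light-harvesting chlorophyll a/b-binding clone (-2.50). All were below the lowest of the 55, USD-188 at -2.27. Of annotated ribosomal protein clones 11 of 22 met the thresholds, and both of these counts include the 4 control clones described above. Of photosynthesis clones 3 of 3 met them, of redox enzyme clones 3 of 12 and of chaperone clones 1 of 3. Of the moss's rehydrin clones 1 of 8 did, and of late embryogenesis abundant and desiccation protein clones 0 of 5. The median ratios after loess of the 37 annotated clones were -1.70, -1.21, -1.18 and -0.95 in the 4 groups, beside -1.37, -1.12, -1.02 and -0.85 for the 55. These values give no role to any of the unannotated clones.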

How the data were processed

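The deposited scanner files give intensity per channel and spot, with local background, unnormalized, per the file headers. A flag of another kind, deposited beside them, was used in an alternative alone, since its meaning is not given in the sources used here. The authors' deposited ratios (treated over hydrated, 1 per clone and array, median of the control clones near 1) were an alternative.

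For the rule, the mean signal minus the background median was floored at 50 in each channel, and the median of the 3 spots was taken. Trimmed of a trailing space, 559 annotations read unknown (557 exactly), and the members were the same 55 either way. For the tests, background was corrected with limma 3.58.1 (R 4.3.3) by normexp with an offset of 50, then global loess, and the 3 spots were averaged. One limma model over 8 arrays had 4 group coefficients and a dye term (3 residual and, in the main fit, 6.41 total degrees of freedom). P-values were two-sided and adjusted over 768 clones by the Benjamini-Hochberg method. With 2 arrays per group, the number of arrays limits the precision. The control scale shifts each array after loess so that L17, S14, S16 and S3 average 0. The design text names L23 and L15 in place of L17 and S3. The floor for a dim treated channel takes normalized channel levels (loess, then Aquantile). Other alternatives were median centring without loess, floored background before loess, no dye term, the median of spots, dim clones left out and each array left out. The model was tested on simulated data.

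The members, the lists and the rule for naming clones were chosen with earlier results of these data known. Named were the 10 clones lowest by mean, up to 5 clones per direction of each difference, and the extremes of range and threshold. USD-68 and USD-742 in total RNA, USD-25, USD-303, USD-251 and USD-481 in the slow-dried fractions, USD-443 in the rapid-dried rehydrated fractions, and the clones named for dim signals were added after their values were seen. Replicate numbers were assigned here and pair no samples. Flagged spots were 8.64% of the 1320 spots of the 55 clones and 8.22% of all 18432.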

Additional observations from a re-analysis of the deposited data

Results flagged for a closer look

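All flagged results are differences between groups that passed their own test in limma. Counting clones, 7 of the 55 differed between slow-dried and rapid-dried rehydrated tissue in total RNA and 2 in polysomal RNA, and 12 differed between polysomal and total RNA in slow-dried and 6 in rapid-dried rehydrated tissue. These are 12.7%, 3.64%, 21.8% and 10.9% of the 55, near or under the 17.7%, 3.91%, 29.3% and 29.9% of all clones called. Slow-dried minus rapid-dried rehydrated in total RNA was -2.06 for USD-72, -1.84 for USD-714, -1.78 for USD-390, -1.30 for USD-481 and -1.13 for USD-20. In polysomal RNA it was -1.58 for USD-432 and -1.40 for USD-714. Polysomal minus total in slow-dried tissue was 3.42 for USD-72, 1.60 for USD-336, 1.38 for USD-435, 1.07 for USD-579 and 0.96 for USD-68, and -1.19 for USD-432, -1.15 for USD-254 and -0.79 for USD-515. In rapid-dried rehydrated tissue it was 1.19 for USD-416, 1.08 for USD-25, 0.91 for USD-336, 0.82 for USD-209 and 0.77 for USD-146. The values of USD-435 and USD-25 rest on channels not well above background. USD-416 also lacked, in some group, an array with both channels well above background. With 2 arrays per group no group was large enough to test for a single array that stands apart.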

How the results depend on the processing

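Membership kept 55 of 55 clones with a floor of 20 or 100, 54 with the mean of spots, 40 after normexp and loess and 46 with the authors' ratios centred on the array median. Leaving out 1 array gave 50 to 56 members. Centred on the control clones there were 0.

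Called lower in slow-dried total, rapid-dried rehydrated total, slow-dried polysomal and rapid-dried rehydrated polysomal RNA were 9, 2, 8 and 4 on the control scale and 8, 0, 9 and 2 with the authors' ratios. With 1 array left out the counts ran from 37 to 48, 38 to 47, 18 to 45 and 0 to 43. The low ends came without an array of the group itself, where fewer of all clones were called too. Without replicate 1 or 2 of slow-dried polysomal RNA the median of the 55 in that group was -0.97 and -1.07. Without replicate 1 or 2 of rapid-dried rehydrated polysomal RNA the median in that group was -0.86 and -0.88.

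Called different between the treatments in total and polysomal RNA were 4 and 0 on the control scale and 0 and 0 with the authors' ratios (10 and 6 at an unadjusted p under 0.05). Of all 768 clones 89 and 0 were called there on the control scale. With the authors' ratios 0 of all clones were called in total RNA, and 1 lower and 0 higher in polysomal RNA. Floored background before loess, or dim clones left out, gave 4 of the 55 in polysomal RNA. Between the fractions in slow-dried and rapid-dried rehydrated tissue 146 and 144 of all clones were called on the control scale. With the authors' ratios 12 of them were higher and 13 lower in slow-dried tissue, and 0 differed in rapid-dried rehydrated tissue. The counts of the 55 were 5 and 0 on the control scale, 2 and 0 with the authors' ratios (7 and 6 unadjusted), and 3 in the latter tissue with floored background. With 1 array left out the 4 counts ran from 3 to 12, 0 to 4, 1 to 14 and 0 to 10. In total RNA 12 came without replicate 1 and 3 without replicate 2 of slow-dried total RNA, and 4 without either slow-dried polysomal or 3 without either rapid-dried rehydrated polysomal array. In polysomal RNA the lowest count came without a polysomal array, where fewer of all clones were called too. The median difference of the 55 was then -0.12 and -0.21 without replicates 1 and 2 of slow-dried polysomal RNA. It was -0.15 and -0.10 without those of rapid-dried rehydrated polysomal RNA. Between the slow-dried fractions the lowest counts came without a slow-dried polysomal array, where fewer of all clones were called too. The median of the 55 was 0.22 and 0.24 without replicates 1 and 2 of that group. Between the rapid-dried rehydrated fractions the lowest count came without an array of rapid-dried rehydrated polysomal RNA, where fewer of all clones were called too. The median of the 55 was 0.36 and 0.19 without replicates 1 and 2 of that group. Of 160 refits of the 20 named differences with 1 array left out, 99 kept the call and 61 lost it, with no change of sign.

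Signs turned for USD-146 between the fractions in rapid-dried rehydrated tissue (-0.048, authors' ratios), and, over hydrated tissue in rapid-dried rehydrated total RNA with the authors' ratios, for USD-390 (0.066), USD-678 (0.73), USD-84 (0.22), USD-377 (0.17), USD-714 (0.36), USD-767 (0.30) and USD-726 (0.86). On the control scale USD-84 (0.17) and USD-714 (0.46) turned in the same group. In rapid-dried rehydrated polysomal RNA USD-72 turned on the control scale (0.14) and with the authors' ratios (0.18), as did USD-714 (0.19 and 0.25). The cause was not tested. Of the 20 named calls, the authors' ratios lost 18, the control scale 12, median centring without loess lost 6 (USD-481, USD-20, USD-714 in polysomal RNA, USD-515, USD-336 in rapid-dried rehydrated tissue and USD-146), floored background 3 (USD-25, USD-209 and USD-146), the median of spots 1 (USD-68 between the fractions, 0.92, limma adjusted p = 0.0522) and leaving out flagged spots, chosen after seeing the data, 2 (USD-435 and USD-25). USD-25, USD-435 and USD-416 were not tested with dim clones left out. The median of the 55 for polysomal minus total RNA was 0.38 in slow-dried tissue when replicate 1 of total RNA was left out. For rapid-dried rehydrated tissue it was 0.37 without loess and 0.36 without replicate 1 of rapid-dried rehydrated polysomal RNA. Slow-dried minus rapid-dried rehydrated in polysomal RNA it was -0.28 without loess, -0.27 with dim clones left out and -0.21 without replicate 2 of slow-dried polysomal RNA. No paired analysis was possible because replicate numbers were assigned by dye, and a replicate term would repeat the dye term. Signal near background limits 18 of the 55 clones.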
